A study of Rattus norvegicus with 8 samples.

Results

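Heat shock proteins and their DnaJ cochaperones were examined in whole blood of male Wistar rats given high-fat food, either plain or with 1% mulberry leaf powder. The members were the probe sets that the platform annotation assigns to exactly 1 gene and whose symbol begins with Dnaja, Dnajb or Dnajc and a digit, with Hspa, Hspb, Hspd, Hspe or Hsph, or with Hsp90, together with Cryab and Hsf1. They came to 100 of the 31042 probe sets tested and to 66 of the 14217 genes named alone. They were grouped into HSP40 (39 genes), HSP70 with its relative Hsph1 (12), HSP90 (2), small heat shock proteins (8), the mitochondrial chaperonin (2), the transcription factor Hsf1, and 2 genes that meet the symbol rule as partners of heat shock proteins, Hspbp1 and Hspbap1. A further 6 probe sets name a chaperone together with another gene, among them those for Hsp90aa1, Hspa1b and Hspa8, and were not used, so these 3 genes were not analysed here.

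The rats were 7 weeks old when obtained and received their diets for 8 weeks, and blood was collected on day 56 after a night without food. Each diet had 10 rats and 4 arrays, whose labels call them biological replicates without stating whether 1 rat or several supplied each. The tests below therefore reflect only how far these samples lie apart, which may be technical in part. A group on normal diet was not analysed here. The labelled tissue was checked against blood cell markers: the probe set means of Hbb (15.09), Alas2 (13.85), Lyz2 (13.18), Pf4 (12.67), S100a9 (11.10), Cd3g (10.52) and Ms4a1 (9.19) on the deposited log2 scale all stood at percentile 97.6 or higher of the probe sets. These markers were picked from longer lists as bright ones. Some other blood markers stood much lower, such as Cxcr2 (percentile 37.1), Klrc1 (42.1), Cd14 (56.5) and Blk (68.9). In whole blood, a lower share of a cell type and less RNA per cell cannot be told apart.

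Heat shock proteins are chaperones, which bind unfolded or misfolded proteins. HSP70 binds exposed stretches of a client and releases it in a cycle driven by ATP. HSP40 proteins, named after bacterial DnaJ, deliver clients and switch on the ATPase of HSP70 through their J domain. HSP90 finishes the folding of signalling proteins such as kinases and steroid receptors, small heat shock proteins hold unfolded clients without using ATP, and the chaperonin encloses them in a chamber closed by the co-chaperonin. Heat shock factor 1, encoded by Hsf1, drives many of these genes after heat or protein damage by binding heat shock elements, which are runs of GAA and its reverse complement TTC in alternation. In maturing red cells, HSP70 is known to protect the transcription factor GATA1 from cleavage.

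Promoters of the family were searched for such elements, and 4 sequences are shown because these genes are among those followed across the arrays. A window of 250 bases before to 50 bases after the annotated start was available from RefSeq (build GRCr8) for 53 of the 66 genes. The search was for 3 alternating units, that is GAANNTTC followed by NNGAA, or TTCNNGAA followed by NNTTC, where N is any base. The second form is the first read from the other strand, so both strands were covered. A match occurred in 4 of the 53 windows (7.55%), those of Dnaja1, Hspd1, Hspe1 and Hsph1, against 0.798% of all 33469 promoters. The shorter elements GAANNTTC and TTCNNGAA, which lie inside the longer ones, occurred in 14 of the 53 (26.4%), against 15.9% of all promoters. In both counts each member gene was taken once, while the background took every promoter listed. A match is a description of the letters and does not show binding. The 250 bases upstream of the start follow for 4 genes, 5′ to 3′ on the gene's strand, with every match to the shorter elements in capitals.
Hspe1, the co-chaperonin, chr9:64084077-64084326, plus strand: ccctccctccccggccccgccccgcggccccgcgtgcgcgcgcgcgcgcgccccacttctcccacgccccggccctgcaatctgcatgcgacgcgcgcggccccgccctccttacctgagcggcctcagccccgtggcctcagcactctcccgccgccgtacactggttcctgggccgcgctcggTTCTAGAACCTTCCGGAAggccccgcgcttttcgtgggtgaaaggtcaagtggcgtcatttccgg
Hsph1, an exchange factor of HSP70, chr12:10427118-10427367, plus strand: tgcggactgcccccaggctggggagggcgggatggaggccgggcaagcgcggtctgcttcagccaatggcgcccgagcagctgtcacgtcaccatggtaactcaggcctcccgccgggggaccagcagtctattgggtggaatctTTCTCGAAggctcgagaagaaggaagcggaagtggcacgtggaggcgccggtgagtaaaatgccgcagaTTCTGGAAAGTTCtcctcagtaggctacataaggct
Dnajb1, the main heat-inducible HSP40, chr19:41431142-41431391, minus strand: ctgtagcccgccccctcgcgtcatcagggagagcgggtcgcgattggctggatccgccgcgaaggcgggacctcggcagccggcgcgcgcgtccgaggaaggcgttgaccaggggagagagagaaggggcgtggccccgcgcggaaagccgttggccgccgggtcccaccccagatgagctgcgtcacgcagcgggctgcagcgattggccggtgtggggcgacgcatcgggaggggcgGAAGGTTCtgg
Hspb1, a small heat shock protein, chr12:26432302-26432551, minus strand: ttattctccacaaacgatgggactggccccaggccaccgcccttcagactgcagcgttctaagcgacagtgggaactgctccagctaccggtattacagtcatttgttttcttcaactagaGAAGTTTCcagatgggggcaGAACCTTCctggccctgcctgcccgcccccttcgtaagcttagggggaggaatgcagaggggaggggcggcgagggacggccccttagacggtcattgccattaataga

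Hspd1 and Hspe1 lie head to head, and their windows shared 211 bases, so the capital run of Hspe1 is also the element of Hspd1, read from the opposite strand. In Hspe1 it began 65 bases upstream of the start, and in Hsph1 the 3-unit match began 36 bases upstream. The Dnaja1 match, GAACTTTCCAGAA, began at base 10 after the start, and Dnajb1 held GAAGGTTC beginning 11 bases upstream.

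The deposited values need a unit of their own. They are read as log2 summaries spanning 5.17 to 15.26, but a probe set's SD over the 8 arrays had a median of only 5.31e-06, and 99.4% of probe sets had an SD under 0.001, so the scale between arrays was compressed by an unknown amount. Among the chaperone probe sets the SD ran from 3.32e-07 to 0.000972, with a median of 6.49e-06. Levels are therefore given as the distance from the probe set's mean in units of its own SD over the 8 arrays, and differences as mulberry minus high-fat in the same SD units. No fold change can be read from them, and with 4 arrays against 4 the difference cannot pass 1.87 in either direction. In the alternative settings given below, the SD came from the values and arrays of that setting. Where a setting changes these, its sizes are not in the same unit as the main ones. Where a gene had several probe sets, the one with the highest mean stood for it.

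No chaperone gene differed between the diets once p-values were adjusted. With limma and Benjamini-Hochberg adjustment over all probe sets, 0 of the 66 genes and 0 of the 100 probe sets passed 0.05, as did 0% of all genes and 0% of all probe sets (lowest adjusted p of a member 1). At an unadjusted p under 0.05, 2 genes stood lower with mulberry (3.03%, against a background of 1.72% of all genes) and 3 higher (4.55%, against 2.43%). Over probe sets the counts were 4 lower and 4 higher of 100, against 1.61% and 2.74% of all probe sets. The 4 arrays of one diet lay wholly below those of the other for 1 gene with lower values (1.52%, against 0.957% of genes) and 1 gene with higher values (1.52%, against 1.46%), and for 1 and 2 probe sets (against 0.915% and 1.6%). These counts are small. The shares at an unadjusted p under 0.05 were above the background here and below it in some alternative settings. Those for diets lying wholly apart were near it. Whether the family differs from the background was not tested. The 5 genes at an unadjusted limma p under 0.05 were Dnajb4 and Dnajb1 (lower) and Dnajc22, Dnaja4 and Hspa12a (higher). Of these, Dnajc22 (mean 6.01) and Hspa12a (mean 6.45) were dimmer than the median probe set.

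Lower means with mulberry were somewhat more frequent than higher ones among the chaperones, with 39 of 66 genes lower (59.1%, against 50.9% of all genes). Centring each array on its median left 7 lower (10.6%, against 4.3% of all genes). Over probe sets 56 of 100 were lower, against 47.3% of all probe sets. The median difference was -0.177 for the chaperone genes and -0.019 for all genes, and became 1.13 and 1.15 when each array was centred on its median. Without high-fat replicate 4 it was -0.0558, and without high-fat replicate 1 it was -0.34. The mean level over the 66 genes was 0.064 ± 0.184 SD units with plain high-fat food and -0.064 ± 0.163 with mulberry (SD, n = 4 each), a difference smaller than the spread between arrays of a diet.

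**Figure D1:**
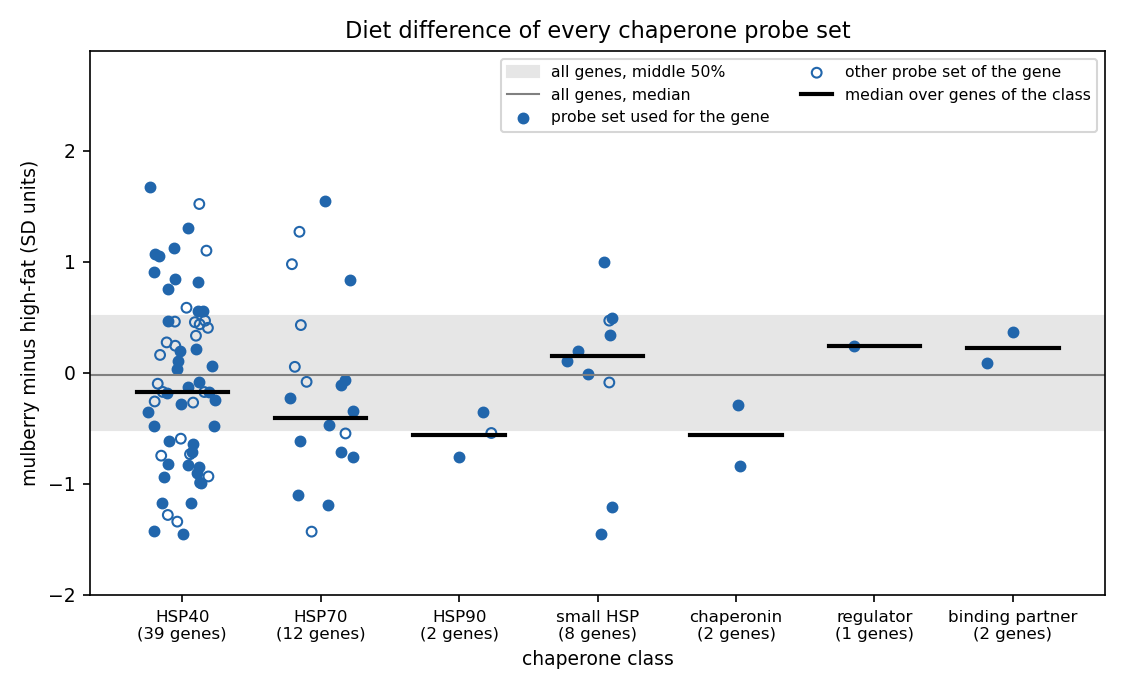
Diet difference (mulberry minus high-fat, SD units, vertical axis) of the 100 chaperone probe sets by class; filled points are the probe sets that stand for a gene, open points the gene's other probe sets, black bars the class medians over genes and the grey band the middle 50% of all genes. HSP70, HSP90 and chaperonin medians lie below 0 (-0.408, -0.556 and -0.562), the HSP40 median at -0.172 and that of the small heat shock proteins at 0.153; after median centring of the arrays the HSP40, HSP70 and small heat shock protein medians were 1.18, 1.07 and 1.1.

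The HSP40 cochaperones, the largest class, divided in direction: 22 of 39 had lower and 17 higher means, with a median of -0.172 that became 0.116 without high-fat replicate 4 and 1.18 after median centring. By their letter, the Dnaja genes had 2 of 4 lower, the Dnajb genes 6 of 12, and the Dnajc genes, which mostly bring the J domain to a special place in the cell, 14 of 23. The lowest difference of all belonged to Dnajb4, a cytosolic J protein close to Dnajb1. Its high-fat arrays were at 0.462, 0.806, 1.29 and 0.343 SD units and its mulberry arrays at -0.81, -0.687, -1.76 and 0.359. Mulberry replicate 4 alone reached the high-fat values, so the groups overlapped by that array. The difference was -1.45 ± 0.454 (SE, n = 4 each, two-sided exact permutation p = 0.0571, limma adjusted p = 1). None of the 21 alternatives tried turned its direction, but some, such as a change of the unit, could not have done so. It was -0.464 after median centring and -0.707 after quantile normalization. A size of 0.707 is what 1 array apart from otherwise equal arrays gives. Values after quantile normalization, here and below, are therefore a weak check of direction.

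Dnajb1 gave a similar picture. Its high-fat arrays were at -0.0216, 0.166, 1.71 and 0.984 and its mulberry arrays at -0.829, -0.554, -1.44 and -0.0209. High-fat replicate 1 and mulberry replicate 4 stood side by side, and the other 3 mulberry arrays lay lower than any high-fat array. The difference was -1.42 ± 0.467 (exact permutation p = 0.0571, limma adjusted p = 1). No alternative among the 21 turned it, with the same limit. It was -1.26 after median centring and -0.908 as the mean of the gene's probe sets. A second Dnajb1 probe set differed by only -0.268 ± 0.711, with high-fat replicate 1 low at -1.36 and mulberry replicate 4 high at 1.03.

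Other HSP40 genes stood higher with mulberry. Dnajc22, a membrane-bound J protein, was at -0.483, -1.04, -1.52 and -0.303 in the high-fat arrays and at 0.482, 1.4, 0.593 and 0.862 in the mulberry arrays. It was the 1 gene whose mulberry arrays all lay above the high-fat arrays (1.67 ± 0.575, exact permutation p = 0.0286, the smallest that 4 against 4 can give, and limma adjusted p = 1), and quantile normalization turned it to -1.08. Its SD of 1.41e-06 was at percentile 12 of the probe sets, and its mean of 6.01 was under that of the median probe set. Dnaja4, a cytosolic J protein, differed by 1.3 ± 0.519 (exact permutation p = 0.0857). The arrays numbered 4 were its extremes, 1.93 with mulberry and -1.46 without, and its second probe set differed by 0.469 ± 0.714.

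The remaining HSP40 genes of small p did not reach an unadjusted p of 0.05. Dnajc5, the cysteine string protein of secretory vesicles, had a difference of -1.17 ± 0.595, and its other probe sets of -0.746 and -0.733, so that its 3 probe sets pointed one way; median centring turned the first to 1.13. Dnajc6, the auxilin that helps uncoat clathrin vesicles, was at -1.17 ± 0.686 and 0.161 ± 0.723 in its 2 probe sets. Dnajc27, a small GTPase with a J domain, was at 1.12 ± 0.591, with high-fat replicate 1 far below the others at -1.97. Dnajb2, a J protein known from neurons, had opposite differences in its 2 probe sets, 1.07 ± 0.588 in the brighter and -0.99 ± 0.61 in the other.

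**Figure D2:**
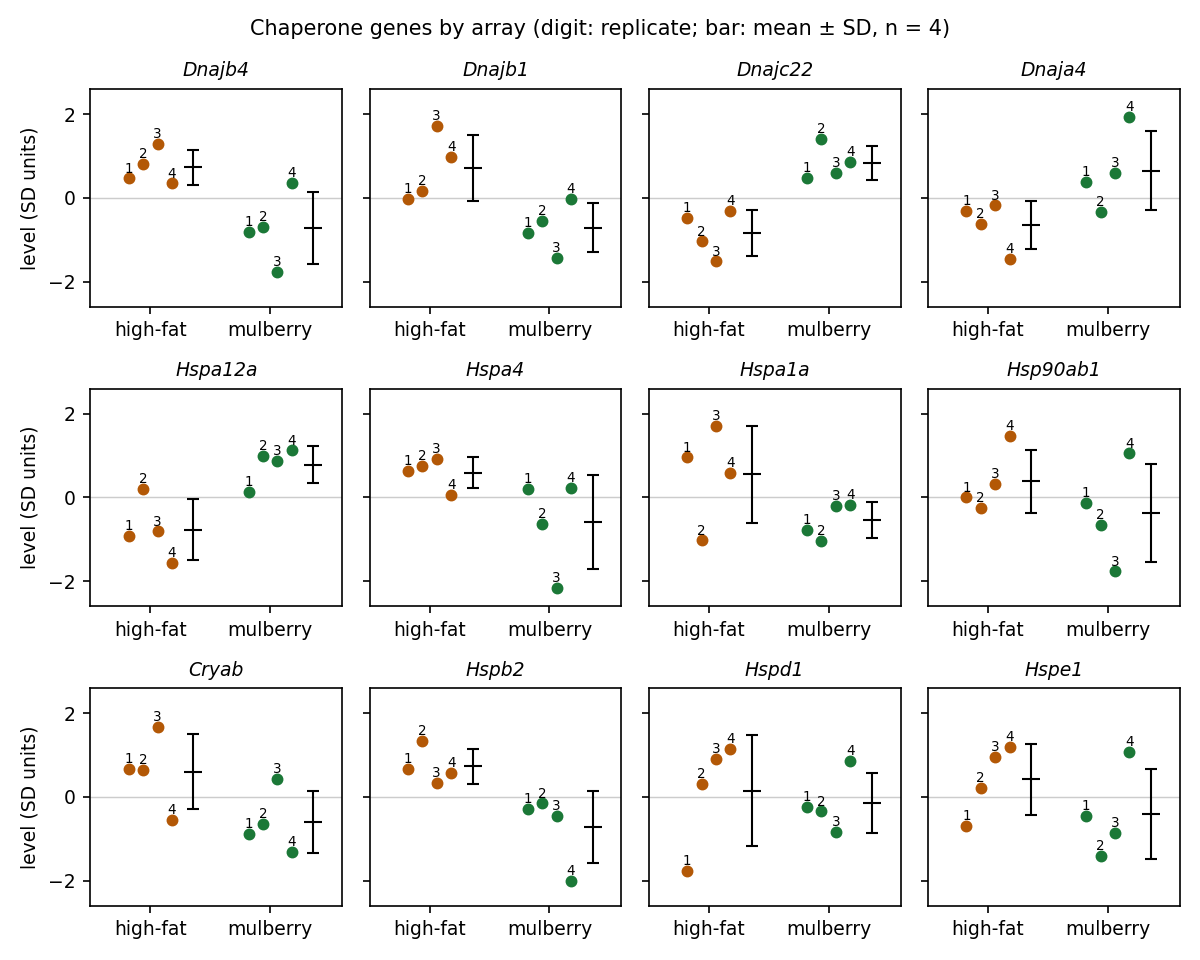
Levels of 12 chaperone genes in each array, in SD units around the probe set's mean over the 8 arrays (vertical axis), for the high-fat and the mulberry diet; each point is an array with its replicate number, and the bars are the mean ± SD of 4 arrays. In Dnajc22 and Hspb2 the diets do not overlap, in Dnajb4 and Dnajb1 they meet at mulberry replicate 4, and in Hspd1 and Hspe1 they overlap widely.

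HSP70 genes had lower means in 10 of 12 cases, with a median of -0.408, which became 1.07 after median centring of the arrays. None of the 10 reached an unadjusted p of 0.05. Hspa4, a relative of HSP70 that exchanges its nucleotide, was at 0.631, 0.752, 0.92 and 0.0673 in the high-fat and 0.201, -0.64, -2.16 and 0.232 in the mulberry arrays. Mulberry replicate 3 was far below the rest, and the groups overlapped at high-fat replicate 4. The difference was -1.19 ± 0.564 (exact permutation p = 0.0857), turning to 1.08 after median centring and 0.716 after quantile normalization. Hspa1a, the strongly heat-inducible cytosolic HSP70, was at 0.954, -1.03, 1.71 and 0.579 against -0.785, -1.04, -0.2 and -0.177. High-fat replicate 2 sat with the mulberry arrays (difference -1.1 ± 0.594, exact permutation p = 0.143, 1.04 after median centring). Without that array the Hspa1a difference was -1.66, and it was -0.428 once the hybridization controls entered as a covariate.

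The HSP70 gene of smallest p went the other way. Hspa12a, a distant member of the family, was at -0.919, 0.192, -0.816 and -1.56 in the high-fat and at 0.127, 0.993, 0.866 and 1.12 in the mulberry arrays, with high-fat replicate 2 just above mulberry replicate 1. The difference was 1.55 ± 0.452 (exact permutation p = 0.0571, limma adjusted p = 1; -0.447 after quantile normalization). Its relative Hspa12b had 3 probe sets that disagreed, at 0.836 ± 0.647, 0.978 ± 0.826 and -1.43 ± 0.494, the first of which was 0.483 without mulberry replicate 3. Hspa9, the mitochondrial HSP70, had 4, at -0.713, 0.0539, -0.546 and 0.43. The first of these was -0.237 without mulberry replicate 3 and -1.07 without mulberry replicate 1. Hspa5, the HSP70 of the endoplasmic reticulum known as BiP, differed by -0.11 ± 0.717, and Hsph1 by -0.223 ± 0.713. The other HSP70 genes, Hspa13, Hspa14, Hspa1l, Hspa2 and Hspa4l, lay between -0.757 and -0.0602 by their brightest probe sets. The dimmer Hspa2 probe set went the other way, at 1.27 ± 2.09.

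Of the HSP90 genes, Hsp90ab1, the constitutive cytosolic form, was at -0.00281, -0.252, 0.315 and 1.46 in the high-fat arrays and at -0.142, -0.66, -1.77 and 1.05 in the mulberry arrays. The arrays numbered 4 were highest in both diets and mulberry replicate 3 was lowest. The difference was -0.76 ± 0.656 (exact permutation p = 0.343), and -0.542 ± 0.687 in the second probe set. Its size rested on single arrays: it was -1.27 without mulberry replicate 4, -0.393 without mulberry replicate 3 and -0.459 without high-fat replicate 4, and -0.186 after the hybridization controls were added as a covariate. Hsp90b1, the form of the endoplasmic reticulum, differed by -0.352 ± 0.705, with high-fat replicate 4 alone at 2.01. Without that array the difference of Hsp90b1 was 0.406.

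The chaperonin genes were alike in their highest arrays but not in their lowest. Hspd1, which forms the mitochondrial chamber, was at -1.77, 0.302, 0.901 and 1.15 in the high-fat and -0.243, -0.349, -0.847 and 0.862 in the mulberry arrays. Hspe1, its lid, was at -0.687, 0.206, 0.963 and 1.19, and at -0.461, -1.42, -0.868 and 1.08. In both, high-fat replicates 3 and 4 and mulberry replicate 4 were the highest arrays, as they were for Dnaja1 and Hsph1 below. The lowest was high-fat replicate 1 for Hspd1 and mulberry replicate 2 for Hspe1. The diet differences were -0.289 ± 0.71 and -0.836 ± 0.645 and turned to 0.987 and 1.14 after median centring. Without high-fat replicate 1 the Hspd1 difference was -1.23, without high-fat replicate 4 it was 0.0475, and Hspe1 was at -1.37 without mulberry replicate 4.

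Small heat shock proteins had lower means in 3 of 8 genes (median 0.153; 1.1 after median centring and -0.697 after quantile normalization; -0.165 without high-fat replicate 4). Hspb2, a muscle-type member, was the 1 chaperone gene whose mulberry arrays all lay below the high-fat arrays. They were at -0.279, -0.157, -0.449 and -2.01 against 0.673, 1.33, 0.33 and 0.567. The difference was -1.45 ± 0.952 (exact permutation p = 0.0286, limma adjusted p = 1), where the wide SE goes with a very small SD of 8.01e-07, which limma draws towards the spread of other probe sets. Cryab, alpha-B-crystallin, differed by -1.21 ± 0.553, Hspb9, known from testis, by 1 ± 0.608, and Hspb1, known as HSP27 in humans, by 0.197 ± 0.715. Median centring turned Cryab to 0.751 and Hspb2 to 1.14. The others, Hspb3, Hspb6, Hspb7 and Hspb8, lay between -0.00955 and 0.493 by their brightest probe sets. Dimmer probe sets of Hspb7 and Hspb8 were at -0.087 and 0.47.

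Hsf1, the factor that activates these genes, was at -1.13, -0.275, -0.688 and 1.61 in the high-fat and -0.449, -0.867, 0.785 and 1 in the mulberry arrays. The groups overlapped over most of their range (0.237 ± 1.29). Hspbp1, an exchange factor of HSP70, differed by 0.0881 ± 0.724 and Hspbap1, a partner of HSPB1, by 0.367 ± 0.716.

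Probe sets of the same chaperone gene often disagreed on the direction of the diet difference. Of the 25 genes with several probe sets, 10 had all of them on the same side of 0 and 15 did not (40% in agreement, against 46.1% of the 4525 genes with several probe sets in the whole table). Dnaja1, Dnajb1, Dnajc10, Dnajc14, Dnajc5, Hsp90ab1 and Hsph1 were lower in each, and Dnaja4, Dnajc2 and Dnajc7 higher in each. Dnajc7, which also binds HSP90, and Dnajb14, of the endoplasmic reticulum membrane, were chosen here after their values were seen. A dimmer Dnajc7 probe set had its mulberry arrays all above the high-fat arrays (1.52 ± 0.422, exact permutation p = 0.0286), while the brightest differed by 0.751 ± 0.666. The Dnajb14 probe sets were at 0.818 ± 0.671, -1.34 ± 0.519 and -0.173 ± 0.716. The choice of probe set thus sets the direction given for many of these genes.

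**Figure D3:**
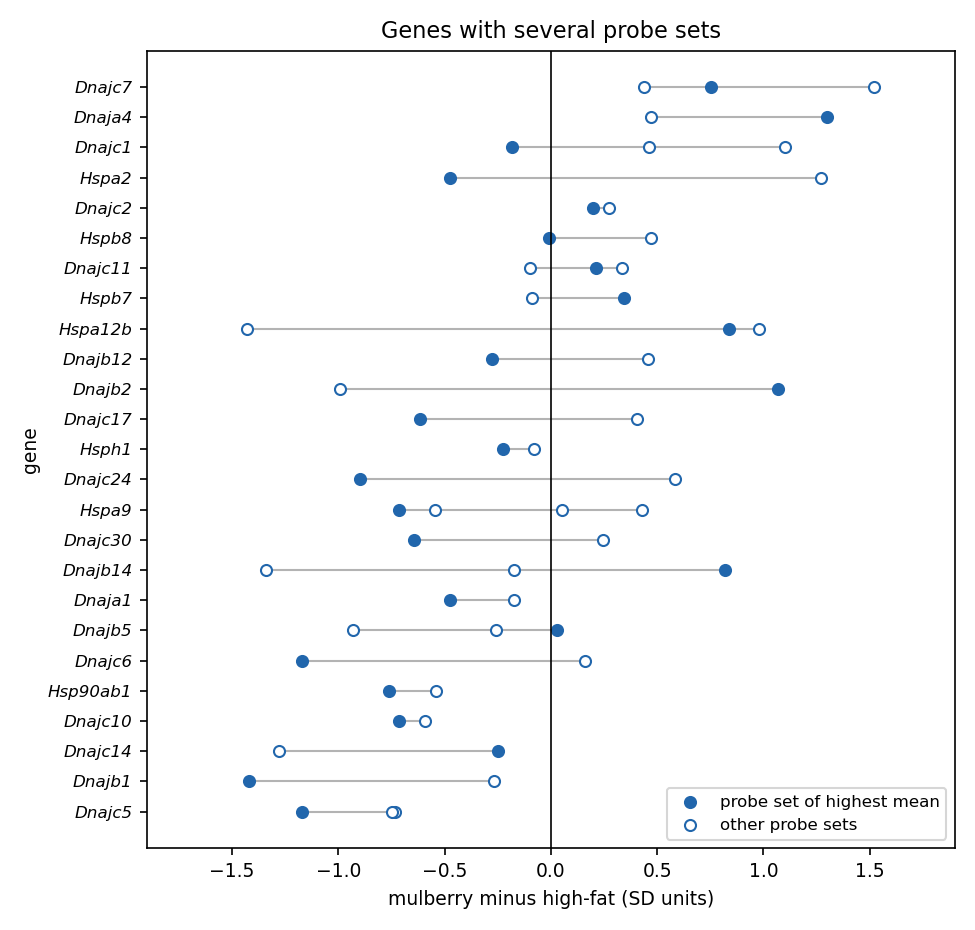
Diet difference (mulberry minus high-fat, SD units, horizontal axis) of each probe set of the 25 chaperone genes that have several; filled points mark the probe set of highest mean and a line joins the probe sets of a gene. The line crosses 0 for 15 genes, among them Hspa12b, Dnajb2 and Dnajb14.

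Some chaperone genes shared an order of arrays that did not follow the diet. They were picked after their values were seen, and whether such an order is more common in the family than elsewhere was not tested. Of the 100 chaperone probe sets, 15 were among the widest 10% of all probe sets in SD and 3 among the widest 1%, those of Hsp90ab1, Hsp90b1 and Hspa5. Dnaja1, a cytosolic J protein that partners HSP70, was at -1.09, -0.425, 1.71 and 0.755 in the high-fat and at -0.306, -0.493, -1.03 and 0.874 in the mulberry arrays. Hsph1 was at -0.912, -0.782, 1.37 and 0.767, and at -0.137, -0.545, -1.05 and 1.29. High-fat replicates 3 and 4 and mulberry replicate 4 were the highest arrays in both, and high-fat replicate 1 and mulberry replicate 3 the lowest. The second probe sets of Dnaja1 and Hsph1 and the dimmer one of Dnajb1 had the same 3 highest and the same 2 lowest arrays. Other cytosolic members had other orders. Dnaja2, a J protein related to Dnaja1, was lowest in high-fat replicate 3 (-0.868), Dnaja4 was lowest in high-fat replicate 4 (-1.46), and Hspa1a was high in high-fat replicate 1 (0.954) and at -0.177 in mulberry replicate 4. The diets overlapped widely in Dnaja1 and Hsph1, with differences of -0.476 ± 0.694 for Dnaja1 (1.08 after quantile normalization, 0.0185 without high-fat replicate 3) and -0.223 ± 0.713 for Hsph1 (0.22 without high-fat replicate 3).

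Among genes of the endoplasmic reticulum, 3 picked after their values were seen, Hspa5, Hsp90b1 and Dnajb11, were highest in high-fat replicate 4. Hspa5 was at -0.898, -0.0572, -0.797 and 1.97 in the high-fat and 0.581, -0.656, -0.738 and 0.594 in the mulberry arrays, and Hsp90b1 at -0.174, -0.287, -0.84 and 2.01 and at 0.415, -0.438, -1.23 and 0.544. Dnajb11, their J protein partner, stood at 1.59 in high-fat replicate 4 and at -1.12 in high-fat replicate 3. Thus high-fat replicate 3, among the highest arrays for Dnaja1, Dnajb1 and Hsph1, was low for these 3 genes. Dnajb9 was also highest in high-fat replicate 4 (1.91). The order did not hold for every gene of the compartment, and the genes named here were picked after their values were seen. Dnajc3, a J protein of its lumen, was highest in mulberry replicate 4 (1.99) and at 0.0585 in high-fat replicate 4, and Dnajb14 was lowest in high-fat replicate 4 (-1.57) and at 0.343 in high-fat replicate 3. Without high-fat replicate 4 the Hspa5 difference changed from -0.11 to 0.811.

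**Figure D4:**
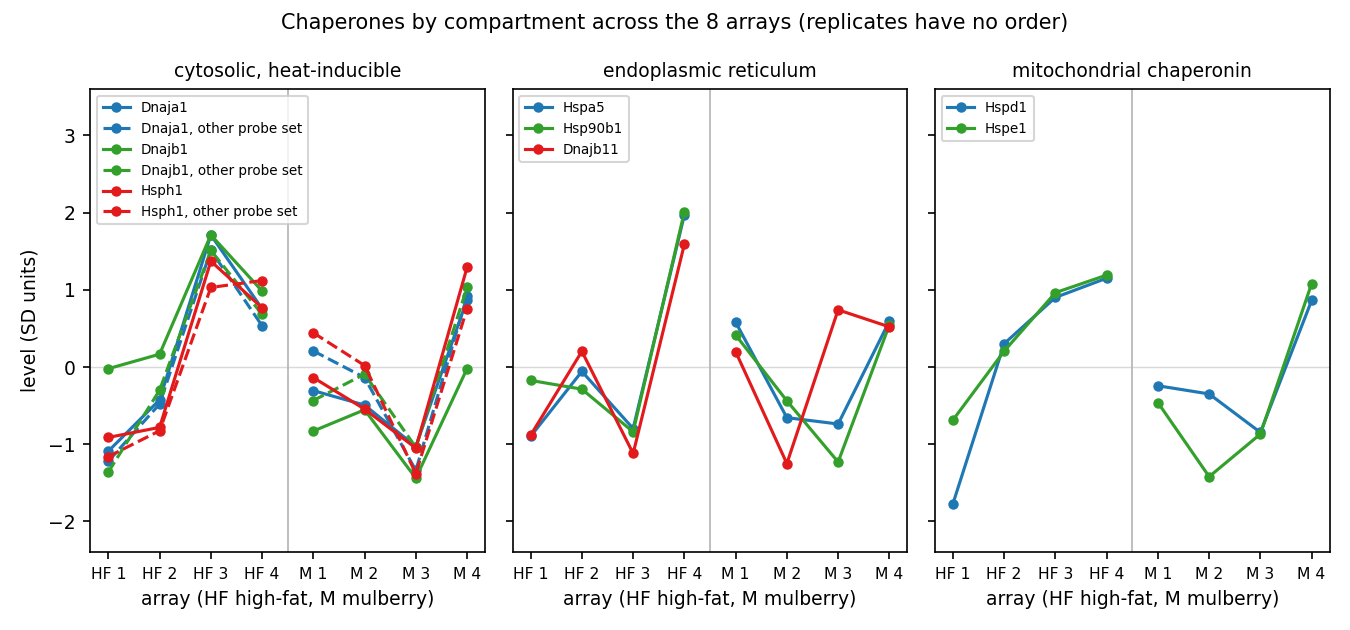
Levels in SD units (vertical axis) of chaperone probe sets in the 8 arrays (horizontal axis), for the cytosolic genes Dnaja1, Dnajb1 and Hsph1, the endoplasmic reticulum genes Hspa5, Hsp90b1 and Dnajb11, and the chaperonin genes Hspd1 and Hspe1; dashed lines are second probe sets, and lines only join the values of a probe set, since replicates have no order. The cytosolic probe sets are high in high-fat replicates 3 and 4, and the 3 endoplasmic reticulum genes shown peak in high-fat replicate 4 (1.97 for Hspa5); all were picked after their values were seen, and other genes of both compartments, such as Dnaja2 and Dnajc3, had other orders.

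Some cell type markers moved with these arrays. The monocyte and natural killer lists are given by array because of their values, which were seen first. The mean of 7 measured monocyte markers, in SD units, was 1.95 in high-fat replicate 4 and between -0.462 and -0.0353 in the other high-fat arrays, and ran from -1.07 in mulberry replicate 3 to 0.394 in mulberry replicate 1. The mean of 7 natural killer markers was 2.06 in high-fat replicate 4, from -0.43 to 0.24 in the other high-fat arrays, and from -0.567 to -0.207 in the mulberry arrays. Other lists had other orders. In high-fat replicate 4 the neutrophil mean was 0.712, T cell -0.194, B cell -0.224, erythroid -0.638 and platelet -1.49. T cell and B cell means were highest in high-fat replicate 2 (1.27 and 1.44), and the platelet mean in mulberry replicate 4 (1.6). Over the diets, 6 of 7 monocyte, 7 of 7 natural killer, 4 of 4 B cell, 5 of 8 T cell and 6 of 8 erythroid markers had lower means with mulberry, and 6 of 8 neutrophil and 8 of 8 platelet markers higher means. None of these markers is listed at 0. The part of these cells in the chaperone values was not tested. The hybridization controls, which are added to each hybridization mix, had a mean level of -0.558 ± 0.856 without and 0.558 ± 0.635 with mulberry (SD, n = 4 each). With them in the model, 1 chaperone gene in place of 5 had an unadjusted limma p under 0.05 (1.52%, against 2.26% of all genes). Dnajb4 and Dnajb1 kept differences of -1.42 and -1.36, and Hsph1, Hspa5 and Hsp90b1 turned to 0.0818, 0.105 and 0.163.

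Genes with heat shock elements were followed as a description. All 4 with a 3-unit match had lower means with mulberry (Hspe1 -0.836, Dnaja1 -0.476, Hspd1 -0.289 and Hsph1 -0.223), each within the spread between arrays and each turned in direction by median centring or quantile normalization. Hspd1 and Hspe1 share the same element, so they are not separate cases of it. Of the 14 genes with the shorter element, 11 were lower (median -0.256), and of the 39 without it 21 (median -0.0856). Hspb1, whose upstream sequence holds 2 of the shorter elements, did not share the array order of Dnaja1 and Hsph1. It was at -0.787, 1.45, 0.258 and -1.31 in the high-fat and 0.326, 0.744, -1.23 and 0.556 in the mulberry arrays, so that high-fat replicate 4, high for Hsph1, was the lowest array.

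The wider folding machinery was looked at through 6 lists of genes outside the families, with 55 of 58 symbols measured. In all, 37 of 55 had lower and 18 higher means with mulberry (median -0.429), where 50.9% of all genes were lower (median -0.019). The lists were read from the main fit only, and no alternative setting was tried on them. Median centring of the arrays left only 4.3% of all genes lower, so the directions of these lists are no firmer than those of the family. At an unadjusted p under 0.05 there was 1 gene in each direction, near the background of 1.72% lower and 2.43% higher, and 0 passed adjustment. In the cytosolic chaperonin CCT, which folds actin and tubulin, 7 of 8 subunits were lower (median -0.662), led by Tcp1 (-1.35 ± 0.497) and Cct4 (-1.06 ± 0.592). Its mean level was 1.26 in high-fat replicate 4 and -1.45 in mulberry replicate 3. Among the cochaperones of HSP70 and HSP90, 14 of 18 were lower (median -0.435), with Ttc4 at -1.14 ± 0.574 and the cyclophilin Ppid at -1.16 ± 0.609.

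Folding enzymes of the endoplasmic reticulum were lower in 7 of 9 cases (median -0.429), with the disulfide isomerase Pdia4 at -1.05 ± 0.594 and the lectin chaperone Calr at 0.727 ± 0.662. Their mean level was highest in high-fat replicate 4 (1.42), like that of Hspa5. The nucleotide exchange factors of HSP70 divided evenly, with 5 of 10 lower (median 0.125). Bag6, which handles stray membrane proteins, had the smallest p among them (1.48 ± 0.441), and Sil1, the exchange factor of the endoplasmic reticulum, was at -0.822 ± 0.669. Of 5 measured prefoldin subunits 3 were lower, with Pfdn4 at -1.15 ± 0.566 and Pfdn2 at 1.14 ± 0.571. Of 5 measured heat shock factors and regulators 1 was lower, the factor Hsf2 at -1.03 ± 0.645, and Ep300, an acetyltransferase, was at 0.258 ± 0.711.

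The medians of the family stayed on the same side of all genes' medians in most of the settings tried, and both moved together when the arrays were centred.

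**Figure D5:**
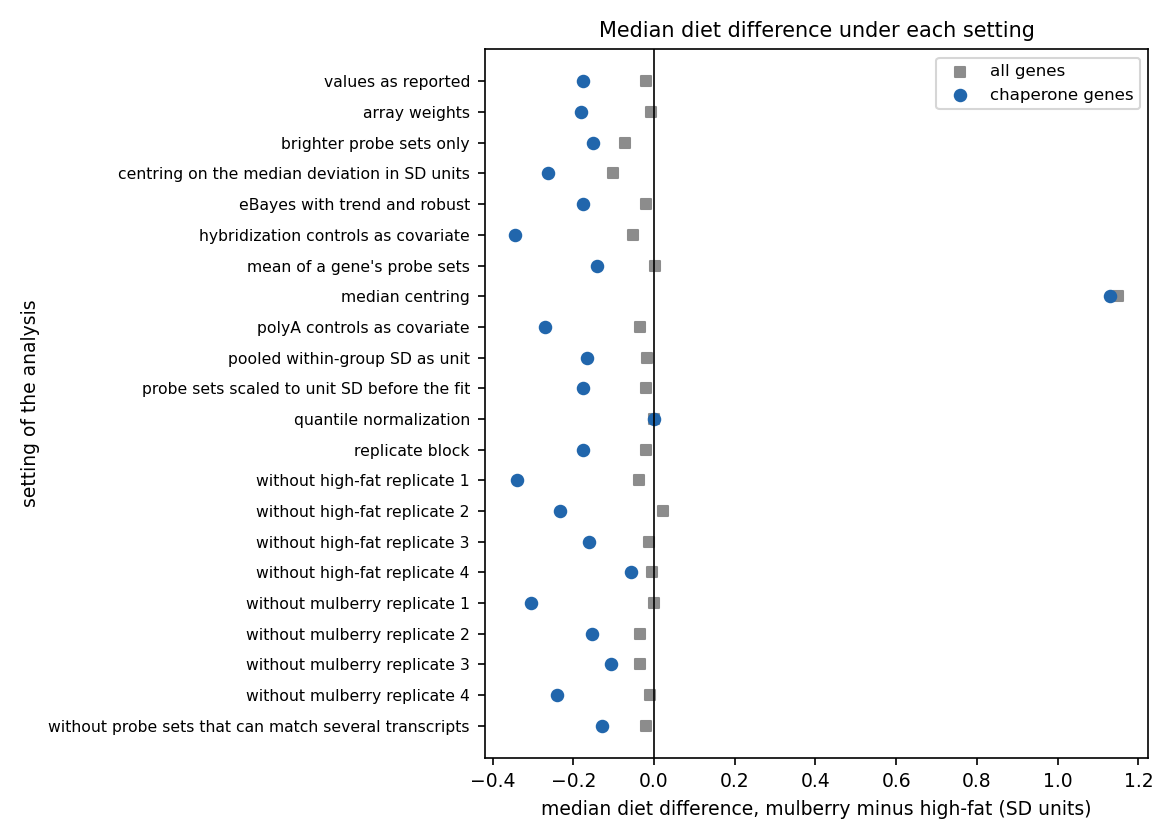
Median diet difference (SD units, horizontal axis) of the chaperone genes (circles) and of all genes (squares) under each setting of the analysis (vertical axis). The chaperone median lies below that of all genes except after quantile normalization, where both are 0, and after median centring of the arrays both stand above 1, at 1.13 and 1.15.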

How the data were processed

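Peripheral blood RNA was labelled from 200 ng total RNA with the Affymetrix 3' IVT Express kit, per the labels' protocols. The authors deposited 1 value per probe set and array, read here as log2 from the range of the values; for how they were summarised and normalised the labels give nothing. Of 31099 probe sets, 57 manufacturer controls were left out. Gene names came from the platform annotation; all 66 gene numbers matched RefSeq (GRCr8). All 31042 probe sets were fitted in R 4.3.3 by the package limma 3.58.1 (lmFit, then eBayes; two-sided, no covariate, Benjamini-Hochberg over all probe sets); differences were then divided by the SD over the 8 arrays. Summaries used Python 3.11.15. Exact permutation tests of single probe sets were two-sided, over the 8 arrays, with no adjustment, and were added after the data were seen. The fit was tested on simulated data. The precision is limited by the 4 arrays per diet.

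The members and lists were chosen with earlier results of these data known. Genes named are the 8 HSP40, 4 HSP70 and 3 small heat shock genes of smallest unadjusted p, all of the smaller classes, 9 commonly studied heat-inducible and organelle members where measured, and up to 2 genes of smallest p per further list; others are said to be chosen after their values were seen. Replicate numbers are shared between diets, but the correlations of same-numbered arrays' deviations (-0.0462, -0.0505, 0.246 and 0.163) do not show that they pair samples. Alternatives were normalization, centring, a filter on dim probe sets, covariates, weights, variance models, the probe set rule, the unit, the threshold, a replicate block and leaving out each array; scaling before the fit was added after the data were seen.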

Additional observations from a re-analysis of the deposited data

Results flagged for a closer look

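In a screen of 62 sets of 4 arrays (the named genes and 4 class means in each diet), in which chance alone marks about 1 in 20, a single array stood far from the other 3 in 2 cases. For Dnajc27, high-fat replicate 1 was at -1.97 SD units, and its gap to the next array took 0.834 of the range of the high-fat arrays. For Hspb2, mulberry replicate 4 was at -2.01, with a gap of 0.843 of the range of the mulberry arrays. Without mulberry replicate 4 the Hspb2 difference was -1.62.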

How the results depend on the processing

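The number of chaperone genes past the adjusted threshold was 0 in every alternative run. The number at an unadjusted p under 0.05, 5 as reported (7.58%, against 4.15% of all genes), was 3 in the brighter probe sets (6.25%, against 3.91%). It was 1 with the hybridization controls in the model (1.52%, against 2.26%) and 1 after quantile normalization (1.52%, against 1.74%). It was 2 with the replicate block (3.03%, against 5.77%) and 0 at an unadjusted p under 0.01. Median centring of the arrays left 7 genes with lower means (10.6%, against 4.3% of all genes). It gave medians of 1.13 for the family, 1.18 for HSP40, 1.07 for HSP70 and 1.1 for the small heat shock proteins. It shifts every probe set of an array alike, and it moved the median of all genes from -0.019 to 1.15. Single genes it turned were Dnajc5 (1.13), Dnajc6 (1.1), Hspa4 (1.08), Hspa1a (1.04), Hspa9 (1.13), Cryab (0.751), Hspb2 (1.14), Hspe1 (1.14) and Hspd1 (0.987). Quantile normalization set 16.7% of the genes to a difference of 0 and gave the small heat shock proteins a median of -0.697. It turned Dnajc22 (-1.08), Dnajc27 (-0.325), Hspa12a (-0.447), Hspa12b (-0.561), Hspb9 (-0.483) and Hspb1 (-1.08) downward. Dnajc5 (0.707), Dnaja1 (1.08), Hspa4 (0.716), Hsph1 (0.0792) and Hspe1 (0.707) turned upward. The cause was not tested. Several genes shared a size of 0.707 or 1.08. These are the sizes that 1 array, or 2 of one diet, apart from otherwise equal arrays give. Such a turn can rest on 1 or 2 arrays and is a weak check of direction. With the hybridization controls as a covariate Hsph1 (0.0818), Hspa5 (0.105), Hsp90b1 (0.163), Hspb1 (-0.762) and Hspbp1 (-0.544) turned, and with the polyA controls Hspa5 (0.00442), Hspb1 (-0.767) and Hspbp1 (-0.144). Leaving out each array in turn gave ranges that cross 0 for Dnaja1 (-0.945 to 0.0185), Hsph1 (-0.748 to 0.22), Hspa5 (-0.425 to 0.811), Hsp90b1 (-0.68 to 0.406), Hspb1 (-0.227 to 0.814), Hspd1 (-1.23 to 0.0475), Hsf1 (-0.103 to 0.995), Hspbap1 (-0.267 to 0.673) and Hspbp1 (-0.787 to 0.421). Dnajb4, Dnajb1, Dnaja4, Dnajb2 and Hsp90ab1 were turned by none of the 21 alternatives, although Dnajb2 and Hsp90ab1 were at 0 after quantile normalization. Some alternatives, such as the variance models, the unit and the replicate block, cannot turn a direction in this balanced design. The replicate block changed no adjusted call, and 2 of the 4 high-fat arrays correlated best with their own number. The filter on dim probe sets removed Dnajc22, Dnajc6, Hspa12a, Hspa1a, Cryab, Hspb1, Hspb2 and Hspb9 of the named genes. Signal over background was not given, so what is limited by low signal could not be judged.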
